A study of Homo sapiens with 9 samples.

Results

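The molecular circadian clock is a loop of transcription factors that turns over about once a day in most mammalian cells. CLOCK and ARNTL (also called BMAL1) form a dimer that binds E-boxes and activates the PER and CRY genes, and the PER and CRY proteins return to the nucleus and block the dimer. The same dimer activates NR1D1 and NR1D2, nuclear receptors that repress ARNTL through ROR elements, and DBP, a transcription factor that activates genes with D-boxes. The pancreas, like most peripheral tissues, carries this clock, and cultured cells can keep it for some days after a change of serum. The 10 genes CLOCK, ARNTL, PER1, PER2, PER3, CRY1, CRY2, NR1D1, NR1D2 and DBP were found by gene name among the 58735 genes in the deposited table, and each name matched 1 row. The rule uses no measured value, but the set was chosen with earlier results of these data known.

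Their transcripts were counted in cells labelled wild type of MIA PaCa-2, an established human pancreatic cancer cell line, grown in DMEM with 10% fetal bovine serum and 2.5% horse serum. All 9 libraries came from cells treated for 24-h: 3 with 0.1% DMSO as the vehicle, 3 with 1 μM SCH772984, an inhibitor of the kinases ERK1 and ERK2, and 3 with 1 μM compound 1, an inhibitor of TBK1 and IKKε. The design asks how each inhibitor changes transcript levels against the vehicle and how the 2 inhibitors differ. Every condition was collected after 24-h of treatment, and the labels used here give no hour of harvest. A change in the level of a clock transcript and a change in the phase of its daily rhythm thus cannot be told apart.

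The libraries held 9464432 to 10286223 counts with DMSO, 9652741 to 9840769 with compound 1 and 11056977 to 13887859 with SCH772984. The labels do not say whether the 3 libraries of a condition came from separate cultures, so p-values measure only the spread between these libraries. The chi-square per degree of freedom between replicates over genes was 2.34 to 3.15 with DMSO and 4.03 to 6.40 with SCH772984. Compound 1 replicate 1 stood apart, at 10.1 and 7.61 against the other two of its group, which differed by 2.66, and results that rest on it are given with and without it. The ERK output genes DUSP6, SPRY4, ETV4 and ETV5 had log2 fold changes of -6.82 to -5.80 with SCH772984 and none was called with compound 1. The epithelial markers KRT8, KRT18 and KRT19, the mesenchymal marker VIM and the duct marker SOX9 were well counted. In contrast, the duct keratin KRT7 had 0 to 5 counts per library and the pancreatic factor PDX1 2 to 13, EPCAM and CDH1 were at 0 with DMSO, and CPA1, PRSS1, PTF1A and the leukocyte marker PTPRC were at 0 throughout. The fibroblast marker COL1A1 had 1 to 4 counts per library with DMSO and with compound 1 and 28 to 48 with SCH772984. These markers did not move together: KRT8, KRT18 and SOX9 had log2 fold changes of -1.69, -2.40 and -1.18 with SCH772984, VIM one of -0.23, and KRT19 one of 0.11, which was not called. The part of these shifts in the clock gene results was not tested. Levels are given as CPM, the counts scaled to a common library total, and log2 fold changes carry their SE after ± in the comparisons between conditions. In bulk RNA, fewer cells of a type and less RNA per cell cannot be told apart.

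With SCH772984, 7 of the 10 clock genes changed against DMSO at an adjusted p under 0.05 (edgeR's quasi-likelihood test, Benjamini-Hochberg over all tested genes). PER1, PER3 and DBP rose, CLOCK, PER2, CRY1 and NR1D1 fell, and ARNTL, CRY2 and NR1D2 did not pass. The inhibitor moved most of the transcriptome, with 37.2% of the 13834 tested genes called higher and 35.5% called lower, so 3 members higher and 4 lower is a share near the background. The members' median log2 fold change was -0.05, beside 0.03 over all tested genes, and their median absolute change was 0.74, beside 0.59. With compound 1, 0 of the 10 genes passed after adjustment, where 0.490% of 12849 tested genes were called higher and 0.374% lower. At an unadjusted p under 0.05, 3 members were lower with compound 1 (PER1, PER3 and NR1D2) and 0 higher, where 7.69% and 7.35% of tested genes were lower and higher. DESeq2 on the same genes called 1 member with compound 1 after adjustment, PER3. All 10 genes passed the filter on low counts in every comparison.

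**Figure D1:**
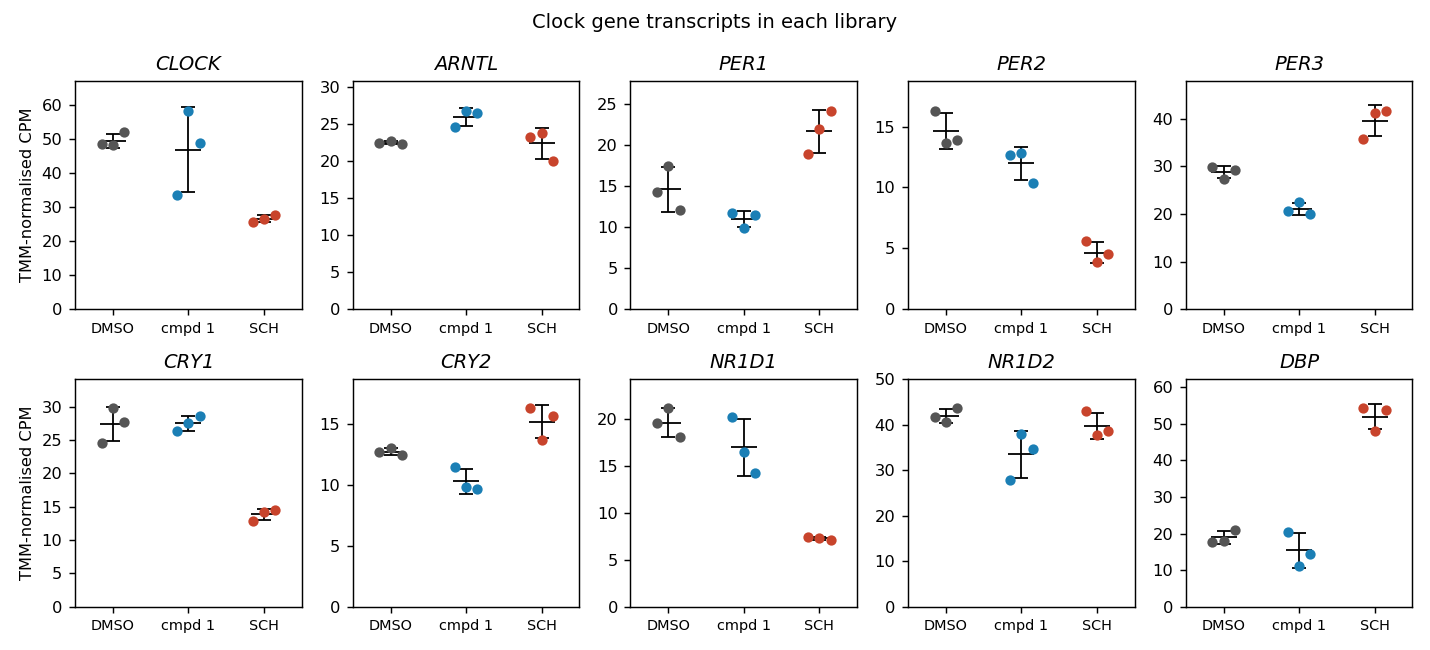
CPM (a library's counts scaled to a common total with TMM factors) of the 10 clock genes in each of the 9 libraries, a point per library, with the mean and SD of each condition (n = 3) as the black line and bars; cmpd 1 is compound 1 and SCH is SCH772984. DBP stood at 48.0 to 54.2 CPM with SCH772984 and at 11.3 to 21.1 in the other 6 libraries, and PER2 at 3.88 to 5.57 against 10.4 to 16.3.

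Binding motifs of the clock loop were looked for in the promoters of the 10 genes, as RefSeq windows on GRCh38.p14 from 250 bases before to 50 bases after each start. All 10 genes matched, ARNTL under its current symbol BMAL1, with 15 windows in all because some genes have more than 1 start. The motifs, read on both strands, were the E-box CACGTG, the related E-prime-box CACGTT, the D-box TTATGTAA or TTACGTAA, the ROR element core TAGGTCA and the cyclic AMP response element TGACGTCA. These letters occurred in windows of 9 of the 10 genes at 13 positions, and DBP had none. The E-box occurred in 2 of the 15 windows (7.26% of all 35116 windows hold it), the E-prime-box in 5 (5.34%) and the D-box in 3 (1.01%). The ROR element core occurred in 2 (1.85%) and the cyclic AMP response element in 0 (1.85%). For each motif these windows were of different genes. A match is a description of the sequence and not evidence of binding, and the absence of one says only that these letters are not in the window. The sequences shown are those of the period genes, which moved in different directions with SCH772984, of NR1D1 and NR1D2, of which only the first was called, and of the remaining genes with an E-prime-box. Each is written 5′ to 3′ on the strand of its gene, with the motif in capitals.

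In PER1, the E-box began 173 bases before the start, in chr17:8152532-8152617 on the minus strand.
PER1 E-box: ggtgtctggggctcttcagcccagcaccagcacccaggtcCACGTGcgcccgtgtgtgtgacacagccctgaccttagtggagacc
In PER2, an E-prime-box began 197 bases before the start, in chr2:238288762-238288847 on the minus strand, and a D-box began 3 bases before it, in chr2:238288581-238288653.
PER2 E-prime-box: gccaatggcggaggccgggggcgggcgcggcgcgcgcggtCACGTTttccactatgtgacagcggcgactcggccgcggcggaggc
PER2 D-box: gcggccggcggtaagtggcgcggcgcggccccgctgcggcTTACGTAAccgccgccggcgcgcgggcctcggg
In PER3, a D-box began 177 bases before the start, in chr1:7784074-7784161 on the plus strand.
PER3 D-box: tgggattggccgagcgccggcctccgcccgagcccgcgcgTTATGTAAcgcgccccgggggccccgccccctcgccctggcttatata
In NR1D1, an E-prime-box on the opposite strand, which reads AACGTG here, began 168 bases before the start, in chr17:40100712-40100797 on the minus strand.
NR1D1 E-prime-box: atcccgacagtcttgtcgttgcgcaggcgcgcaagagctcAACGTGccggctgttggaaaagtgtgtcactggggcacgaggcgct
In NR1D2, a D-box on the opposite strand, which reads TTACATAA here, began 194 bases before the start and was followed by an E-box 155 bases before it, in chr3:23945887-23945974 on the plus strand.
NR1D2 D-box and E-box: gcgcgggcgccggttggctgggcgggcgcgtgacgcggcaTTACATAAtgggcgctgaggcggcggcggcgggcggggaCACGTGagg
A further E-box of NR1D2 began 105 bases before the start, in chr3:23945976-23946061.
NR1D2 further E-box: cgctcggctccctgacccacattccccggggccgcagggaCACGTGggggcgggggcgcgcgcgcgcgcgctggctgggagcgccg
In CLOCK, an E-prime-box began 187 bases before the start in 1 of its windows, in chr4:55546074-55546159 on the minus strand.
CLOCK E-prime-box: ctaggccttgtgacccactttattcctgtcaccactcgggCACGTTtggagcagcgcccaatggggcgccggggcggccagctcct
In CRY1 it was on the opposite strand, 89 bases before the start, in chr12:107093621-107093650 on the minus strand.
CRY1 E-prime-box: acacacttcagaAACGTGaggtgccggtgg
In CRY2 it was on the opposite strand, 188 bases before the start in 1 of its windows, in chr11:45847252-45847332 on the plus strand.
CRY2 E-prime-box: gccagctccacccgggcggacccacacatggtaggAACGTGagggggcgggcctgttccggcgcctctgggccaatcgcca
The D-box was thus found in PER2, which fell with SCH772984, in PER3, which rose, and in NR1D2, which was not called. The E-prime-box was found in all 4 genes that fell, CLOCK, PER2, CRY1 and NR1D1. It was also found in CRY2, which was not called but had every SCH772984 library above every DMSO library. The E-prime-box was not found in PER1, PER3 or DBP, which rose. This was seen after the values were known and was not tested.

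CLOCK, the histone acetyltransferase and DNA-binding partner of ARNTL, fell with SCH772984, whereas ARNTL was not called. CLOCK (ENSG00000134852, chr4:55427903-55547138, minus strand) was at 48.5, 48.3 and 52.0 CPM in the 3 DMSO libraries and at 25.7, 26.5 and 27.7 CPM in the 3 SCH772984 libraries. The groups did not overlap, and the SCH772984 libraries lay within a narrow range. Against DMSO this was a log2 fold change of -0.90 ± 0.09 (SE, n = 3 per group; adjusted p = 2.83e-12 in edgeR), a 1.87-fold fall. With compound 1 CLOCK was at 33.6, 58.4 and 48.8 CPM, and the low value was that of replicate 1. The fitted log2 change was -0.07 ± 0.16 (95% interval -0.41 to 0.26), and without replicate 1 it was 0.12 (adjusted p = 0.453).

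ARNTL (ENSG00000133794, chr11:13276652-13387266, plus strand) was at 22.4, 22.6 and 22.2 CPM with DMSO. It was at 23.2, 23.8 and 20.0 CPM with SCH772984, a range that covers the DMSO values. Its log2 fold change was -0.01 ± 0.11 (95% interval -0.24 to 0.21; adjusted p = 0.917), and it turned to 0.16 (adjusted p = 0.196) when libraries were scaled by size alone. With compound 1 ARNTL was at 24.5, 26.7 and 26.4 CPM, above all 3 DMSO libraries. The log2 fold change was 0.21 ± 0.10 (95% interval -0.01 to 0.43; adjusted p = 0.357, edgeR). It was the only member with all compound 1 libraries above all DMSO libraries, as 10.3% of tested genes were.

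The 3 period genes, whose proteins form the repressor complex with the cryptochromes, parted with SCH772984: PER2 fell while PER1 and PER3 rose. PER2 (ENSG00000132326, chr2:238244038-238290102, minus strand) was at 16.3, 13.7 and 13.9 CPM with DMSO and at 5.57, 3.88 and 4.50 CPM with SCH772984. Every SCH772984 library was far below every DMSO library. Against DMSO this was a log2 fold change of -1.66 ± 0.17 (95% interval -2.01 to -1.31; adjusted p = 1.01e-11, edgeR), a 3.16-fold fall and the largest of the 10 genes, and 12.2% of all tested genes moved further. These values rest on 46 to 67 counts in the SCH772984 libraries and 124 to 159 in those with DMSO. With compound 1 PER2 was at 12.7, 12.8 and 10.4 CPM, below all DMSO libraries, with a log2 fold change of -0.29 ± 0.14 (95% interval -0.59 to 0.02; adjusted p = 0.362).

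PER1 (ENSG00000179094, chr17:8140472-8156506, minus strand), the period gene known for rapid induction by serum and cyclic AMP, was at 14.3, 17.4 and 12.0 CPM with DMSO. It was at 19.0, 21.9 and 24.2 CPM with SCH772984, above all DMSO libraries. The fitted log2 change was 0.57 ± 0.13 (95% interval 0.30 to 0.84; adjusted p = 0.000198, edgeR). With compound 1 PER1 was at 11.7, 9.92 and 11.4 CPM, just below the lowest DMSO library. Its log2 fold change was -0.40 ± 0.16 (95% interval -0.73 to -0.07; adjusted p = 0.238, edgeR). The compound 1 interval lies below 0, but the change did not pass after adjustment.

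PER3 (ENSG00000049246, chr1:7784320-7845177, plus strand), often regarded as the period gene least needed for the rhythm itself, was at 29.8, 27.4 and 29.3 CPM with DMSO. It was at 35.8, 41.2 and 41.7 CPM with SCH772984, and the groups did not overlap. The log2 fold change was 0.45 ± 0.09 (95% interval 0.26 to 0.64; adjusted p = 4.56e-05, edgeR). This size is small for these libraries, since 60.2% of tested genes moved further.

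With compound 1, PER3 was at 20.7, 22.6 and 20.0 CPM, below every DMSO library and in the opposite direction to SCH772984. The log2 fold change of -0.45 ± 0.11 (95% interval -0.68 to -0.22) had a p of 0.000714 and an adjusted p of 0.0637 in edgeR, the lowest of the 10 genes. PER3 passed in 5 of 13 other settings, with adjusted p from 0.00966 to 0.265 over all of them and a log2 fold change of -0.51 to -0.42. It is thus at the edge of the threshold, and 7.78% of tested genes moved further with compound 1.

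CRY1, a light-independent repressor of the CLOCK and ARNTL dimer, fell with SCH772984. CRY1 (ENSG00000008405, chr12:106991364-107093829, minus strand) was at 24.6, 29.7 and 27.7 CPM with DMSO and at 12.9, 14.3 and 14.4 CPM with SCH772984. The groups were far apart. Against DMSO this was a log2 fold change of -0.98 ± 0.12 (95% interval -1.22 to -0.74; adjusted p = 8.78e-10, edgeR), a 1.97-fold fall. With compound 1 CRY1 was at 26.4, 27.5 and 28.6 CPM, within the DMSO range, with a log2 fold change of 0.01 ± 0.11 (95% interval -0.22 to 0.24).

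CRY2 (ENSG00000121671, chr11:45847118-45883248, plus strand), the paralog with the same role, was at 12.7, 13.0 and 12.5 CPM with DMSO. It was at 16.3, 13.7 and 15.6 CPM with SCH772984, above all DMSO libraries. Of the members, 4 lay wholly above DMSO and 4 wholly below, as did 38.0% and 36.3% of tested genes. The CRY2 log2 fold change of 0.25 ± 0.14 (95% interval -0.03 to 0.53) missed the threshold at an adjusted p of 0.0987 in edgeR. It was 0.43 (adjusted p = 0.00567) when libraries were scaled by size alone and 0.33 (adjusted p = 0.0296) when 10 counts were required in every library.

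With compound 1 CRY2 was at 11.5, 9.81 and 9.67 CPM, below all DMSO libraries. The fitted log2 change was -0.30 ± 0.14 (95% interval -0.60 to 0.002; adjusted p = 0.335). In all, 5 of the 10 genes (PER1, PER2, PER3, CRY2 and NR1D2) had every compound 1 library below every DMSO library, where 10.6% of tested genes did. The changes were small and 8 of the 10 had a negative sign, beside 6365 of the 12849 tested genes. The median log2 fold change of the 10 genes was -0.29, beside 0.002 over all tested genes. The 10 genes are no independent replicates of a condition, and these counts are given with no test.

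NR1D1 and NR1D2 encode REV-ERBα and REV-ERBβ, heme-binding nuclear receptors that repress ARNTL, and only NR1D1 was called with SCH772984. NR1D1 (ENSG00000126368, chr17:40092787-40100725, minus strand) was at 19.6, 21.1 and 18.1 CPM with DMSO and at 7.40, 7.34 and 7.12 CPM with SCH772984. The 3 SCH772984 libraries were nearly identical and all far below DMSO. The log2 fold change was -1.43 ± 0.14 (95% interval -1.72 to -1.14; adjusted p = 4.19e-12, edgeR), a 2.70-fold fall. With compound 1 NR1D1 was at 20.2, 16.5 and 14.2 CPM, and only replicate 1, the first value, overlapped DMSO. Its log2 fold change was -0.20 ± 0.14 (95% interval -0.49 to 0.09), and without replicate 1 it was -0.34 (adjusted p = 0.108, edgeR). Over the 13 other settings NR1D1 ranged from -0.34 to -0.09 and passed in 0. Its last exon overlaps THRA on the opposite strand over 263 exonic bases (9.49% of its exonic length), and THRA had 291 to 359 counts per library with DMSO, 290 to 331 with compound 1 and 809 to 1031 with SCH772984. THRA thus moved upwards while NR1D1 counts fell, with 165 to 191 in DMSO libraries and 87 to 106 in SCH772984 libraries.

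NR1D2 (ENSG00000174738, chr3:23945260-23980618, plus strand) was at 41.6, 40.5 and 43.6 CPM with DMSO and at 43.1, 37.6 and 38.7 CPM with SCH772984. These ranges overlap. Against DMSO this was a log2 fold change of -0.08 ± 0.09 (95% interval -0.26 to 0.10; adjusted p = 0.411, edgeR). With compound 1 NR1D2 was at 27.9, 38.0 and 34.6 CPM, below all DMSO libraries, and the lowest was replicate 1. The fitted log2 change was -0.32 ± 0.11 (95% interval -0.56 to -0.08; adjusted p = 0.196, edgeR), and without replicate 1 it was -0.20 (adjusted p = 0.181).

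DBP, the clock's output activator of the PAR bZIP family, rose most of the 10 genes with SCH772984. DBP (ENSG00000105516, chr19:48630030-48637438, minus strand) was at 17.8, 17.9 and 21.1 CPM with DMSO and at 54.2, 48.0 and 53.7 CPM with SCH772984. The lowest SCH772984 library lay above the highest DMSO library by a wide margin. The log2 fold change was 1.45 ± 0.10 (95% interval 1.25 to 1.65; adjusted p = 1.33e-17, edgeR), a 2.73-fold rise, and 16.1% of tested genes moved further. DBP shares 661 exonic bases (10.1%) with SPHK2 on the opposite strand, whose counts were 151 to 171 with DMSO, 116 to 159 with compound 1 and 239 to 334 with SCH772984, beside 162 to 193, 108 to 191 and 569 to 800 for DBP. Whether reads were assigned by strand is not given in the sources used here. Reads in the shared bases of DBP with SPHK2 and of NR1D1 with THRA thus cannot be told apart. The same holds for PER3, which shares 1350 exonic bases (16.7%) with Z98884.1 and UTS2 on the opposite strand. Z98884.1 had 0 to 6 counts per library with DMSO and with compound 1 and 9 to 15 with SCH772984. UTS2 had 0 to 1 throughout. PER3 itself had 248 to 291 counts with DMSO and 431 to 621 with SCH772984.

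With compound 1 DBP was at 20.6, 11.3 and 14.3 CPM. Replicate 1 lay within the DMSO range and the other two below it. Against DMSO this was a log2 fold change of -0.30 ± 0.17 (95% interval -0.67 to 0.07; adjusted p = 0.452, edgeR), and without replicate 1 it was -0.56 with an adjusted p of 0.00944. Without that library DBP and PER3 both passed, so the count of members called with compound 1 was 2 in place of 0. Over all genes 453 were then called higher and 798 lower, in place of 63 and 48. Over the 13 other settings the compound 1 log2 fold change of DBP ranged from -0.56 to -0.12, and DBP passed only without replicate 1.

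**Figure D2:**
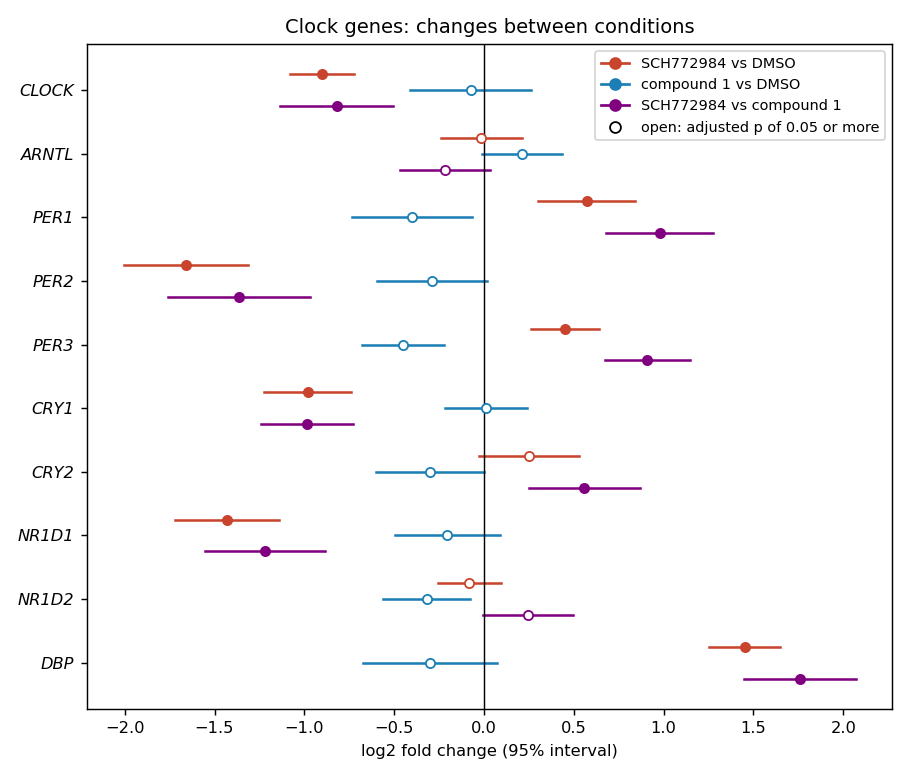
Log2 fold changes of the 10 clock genes in the 3 comparisons, with 95% intervals from edgeR (n = 3 libraries per condition); filled points have an adjusted p under 0.05 and open points do not. SCH772984 moved DBP by 1.45 and PER2 by -1.66 against DMSO, while the compound 1 values, all open, lie between -0.45 and 0.21.

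SCH772984 was also compared with compound 1 directly, each at 1 μM for 24-h. Between the inhibitors, 4 clock genes were higher with SCH772984 (PER1, PER3, CRY2 and DBP) and 4 lower (CLOCK, PER2, CRY1 and NR1D1), where 33.7% of 13863 tested genes were higher and 32.6% lower. DBP differed most, by 1.76 ± 0.15 on the log2 scale (edgeR, adjusted p = 1.91e-09), and PER2 was the lowest at -1.36 ± 0.19 (adjusted p = 2.19e-06). For PER1 and PER3, which stood on opposite sides of DMSO with the 2 inhibitors, the differences were 0.98 ± 0.14 (adjusted p = 4.29e-06) and 0.91 ± 0.11 (adjusted p = 6.09e-07). CRY2, which neither inhibitor moved past the threshold against DMSO, differed between them by 0.56 ± 0.15 (95% interval 0.25 to 0.87; adjusted p = 0.00248). CLOCK, CRY1 and NR1D1 differed by -0.82 ± 0.15, -0.99 ± 0.12 and -1.22 ± 0.16. The intervals for ARNTL (-0.47 to 0.04) and NR1D2 (-0.003 to 0.50) left both genes uncalled, at adjusted p of 0.121 and 0.0764. NR1D2 was called in 4 of 13 other settings, with adjusted p from 0.0103 to 0.298 and log2 fold changes of 0.13 to 0.38 over all of them. This comparison and those with DMSO share libraries and are not independent of each other. The inhibitors act on different kinases.

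Ratios between clock genes within a library do not depend on how libraries are scaled. They were taken as the log2 ratio of counts with 0.5 added, and 15 comparisons were tested by a two-sided exact permutation test, which cannot go below p = 0.1 with 3 libraries against 3 and so cannot reach 0.05. PER1 and PER2 gave nearly equal counts with DMSO, a mean log2 ratio of -0.02 ± 0.32 (SD, n = 3), and the ratio was 2.22 ± 0.40 with SCH772984. The difference was 2.24 (exact permutation p = 0.1, adjusted p = 0.15), and the libraries did not overlap. The ratio of PER3 to PER2 went from 0.98 ± 0.10 to 3.09 ± 0.37 (difference 2.11, exact permutation p = 0.1). In both ratios the SCH772984 libraries lay above all others, and no choice of scaling enters them.

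The ratio of CRY1 to CRY2 counts was 1.09 ± 0.13 with DMSO, -0.13 ± 0.20 with SCH772984 and 1.41 ± 0.19 with compound 1. With SCH772984 it fell below every DMSO library (difference -1.22), and with compound 1 it lay above every DMSO library (difference 0.32). Each had the smallest exact permutation p of 0.1. The margin with compound 1 was narrow, with replicate 1 at 1.191 and the highest DMSO library at 1.185. The remaining compound 1 libraries were at 1.48 and 1.56. NR1D1 to NR1D2 was -1.10 ± 0.16 with DMSO and -2.44 ± 0.09 with SCH772984, which do not overlap, a difference of -1.34. With compound 1 it was -0.98 ± 0.45 and overlapped DMSO (difference 0.12, exact permutation p = 0.9), and without replicate 1 the difference was -0.14. CLOCK to ARNTL was 1.14 ± 0.07 with DMSO, 0.26 ± 0.18 with SCH772984 and 0.82 ± 0.34 with compound 1. SCH772984 lay apart from DMSO (exact permutation p = 0.1) but overlapped compound 1 through its replicate 1 (difference -0.56, p = 0.2 in the same exact test). Without replicate 1, SCH772984 and compound 1 lay apart, with a difference of -0.75 (exact permutation p = 0.1, the smallest possible), and compound 1 differed from DMSO by -0.14 in place of -0.32.

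**Figure D3:**
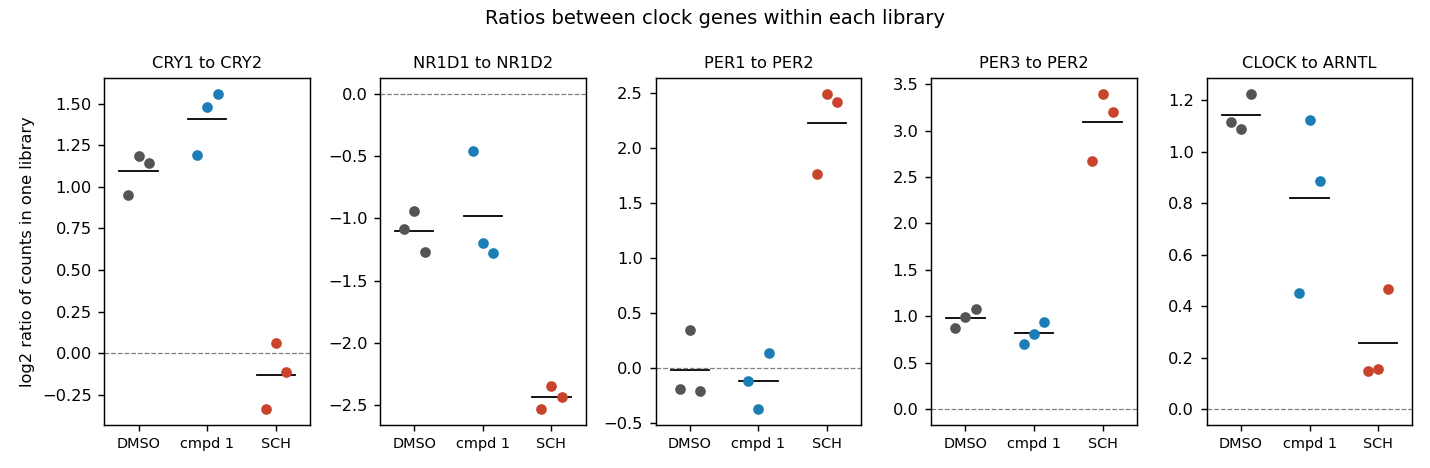
Log2 ratio of the counts of 2 clock genes within each library (vertical axis, own scale in each panel), a point per library and a line at the mean of each condition (n = 3); the dashed line marks equal counts. PER1 to PER2 averaged -0.02 with DMSO and 2.22 with SCH772984, and CRY1 to CRY2 averaged 1.09 and -0.13.

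Levels were compared between genes per kilobase of exonic length. With DMSO NR1D2 and NR1D1 had the highest levels, 7.20 ± 0.26 and 7.06 ± 0.55 CPM per kilobase (SD, n = 3), and did not differ beyond their spread. CRY1 (5.40 ± 0.51), CLOCK (4.22 ± 0.18), PER3 (3.56 ± 0.16), ARNTL (3.33 ± 0.03) and DBP (2.90 ± 0.29 CPM per kilobase) followed, each apart from its neighbours. PER2 (2.13 ± 0.21), PER1 (2.08 ± 0.39) and CRY2 (2.05 ± 0.04 CPM per kilobase) were lowest and overlapped. The exonic length joins the exons of all annotated transcripts, so the levels per kilobase are lower than those of a single shorter transcript would be.

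With SCH772984 the order changed. DBP stood first at 7.94 ± 0.52 CPM per kilobase, overlapping NR1D2 at 6.84 ± 0.50, and PER3 followed at 4.89 ± 0.40, apart from both neighbours. ARNTL (3.32 ± 0.30), PER1 (3.10 ± 0.37), CRY1 (2.74 ± 0.17), NR1D1 (2.63 ± 0.05), CRY2 (2.45 ± 0.22) and CLOCK (2.26 ± 0.08 CPM per kilobase) formed a run in which each overlapped the next. PER2 was alone at the bottom, at 0.676 ± 0.124 CPM per kilobase. With compound 1 the order was close to that with DMSO, with NR1D1 (6.13 ± 1.09), NR1D2 (5.76 ± 0.89) and CRY1 (5.43 ± 0.22) first and overlapping, and PER2 (1.74 ± 0.20), CRY2 (1.67 ± 0.17) and PER1 (1.58 ± 0.14 CPM per kilobase) last and overlapping.

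Beyond the 10 genes, 28 clock-linked genes were listed: paralogs and modifiers of the loop, its kinases and ubiquitin ligases, and a few outputs. With SCH772984, 23 of them were tested, and 3 rose, 12 fell and 8 did not pass, where 37.2% of all tested genes were called higher and 35.5% lower. Their median log2 fold change was -0.25, beside 0.03 over all genes. NPAS2 and ARNTL2, the paralogs that can stand in for CLOCK and ARNTL, both fell, by 1.17 and 1.22 on the log2 scale (adjusted p = 4.79e-08 and 0.000321, edgeR). NPAS2 was at 14.8, 13.6 and 14.1 CPM with DMSO and at 5.24, 8.36 and 5.50 CPM with SCH772984, with no overlap. BHLHE40, which competes for E-boxes, fell by 0.74 (adjusted p = 0.00356), while its paralog BHLHE41 was at -0.15 (adjusted p = 0.362).

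NFIL3, which represses through the D-boxes that DBP activates, rose by 0.63 on the log2 scale with SCH772984 (adjusted p = 0.00271, edgeR), from 4.92, 4.97 and 6.35 CPM to 7.32, 9.03 and 8.86 CPM. TEF, a relative of DBP, was at 0.15 on the same scale (adjusted p = 0.161), and HLF, the other relative, had 0 counts with DMSO and 2 to 3 per library with SCH772984, too few to test. RORA, a nuclear receptor that activates through ROR elements, with 2 to 4 counts in DMSO libraries and 9 to 17 in SCH772984 libraries, fell below the filter and was not tested. Its summed counts of 9 and 41 gave a scaled ratio of 3.28 (95% interval 1.57 to 7.68, which covers counting error only).

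Of the outputs and modifiers, NAMPT, the rate-limiting enzyme of NAD salvage, fell from 249, 260 and 250 CPM to 107, 108 and 97.8 CPM with SCH772984, with no overlap. The fitted log2 change was -1.29 ± 0.06 (adjusted p = 4.07e-22, edgeR). NOCT, which encodes nocturnin, fell by 1.20, and WEE1, an inhibitory kinase of the cell cycle, by 1.00 on the log2 scale (adjusted p = 1.76e-08 and 1.77e-12). USP2, a deubiquitinase, had 6 to 13 counts per library with DMSO and 28 to 46 with SCH772984, a log2 fold change of 1.58 ± 0.37 (edgeR, adjusted p = 0.000179). At these counts it passed the filter on low values through the SCH772984 libraries, where it is high.

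With compound 1, 22 of the 28 clock-linked genes were tested, and 1 fell and 0 rose, where 0.374% and 0.490% of all tested genes did, with a median log2 fold change of -0.01. At an unadjusted p under 0.05, 3 were lower and 0 higher, beside 7.69% and 7.35% of all tested genes. The called gene was TEF, at 36.4, 30.0 and 33.6 CPM with DMSO and at 23.3, 23.3 and 20.9 CPM with compound 1, with no overlap. Its log2 fold change was -0.57 ± 0.11 (adjusted p = 0.0311, edgeR), and the list had 0 called genes when any library other than compound 1 replicate 1 was left out. ARNTL2 moved by 0.39 on the log2 scale (adjusted p = 0.41) and NOCT by -0.43 (adjusted p = 0.185 in edgeR). Between the inhibitors, 5 of 23 tested clock-linked genes were higher with SCH772984 and 12 lower, beside 33.7% and 32.6% of all tested genes, and TEF differed by 0.72.

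**Figure D4:**
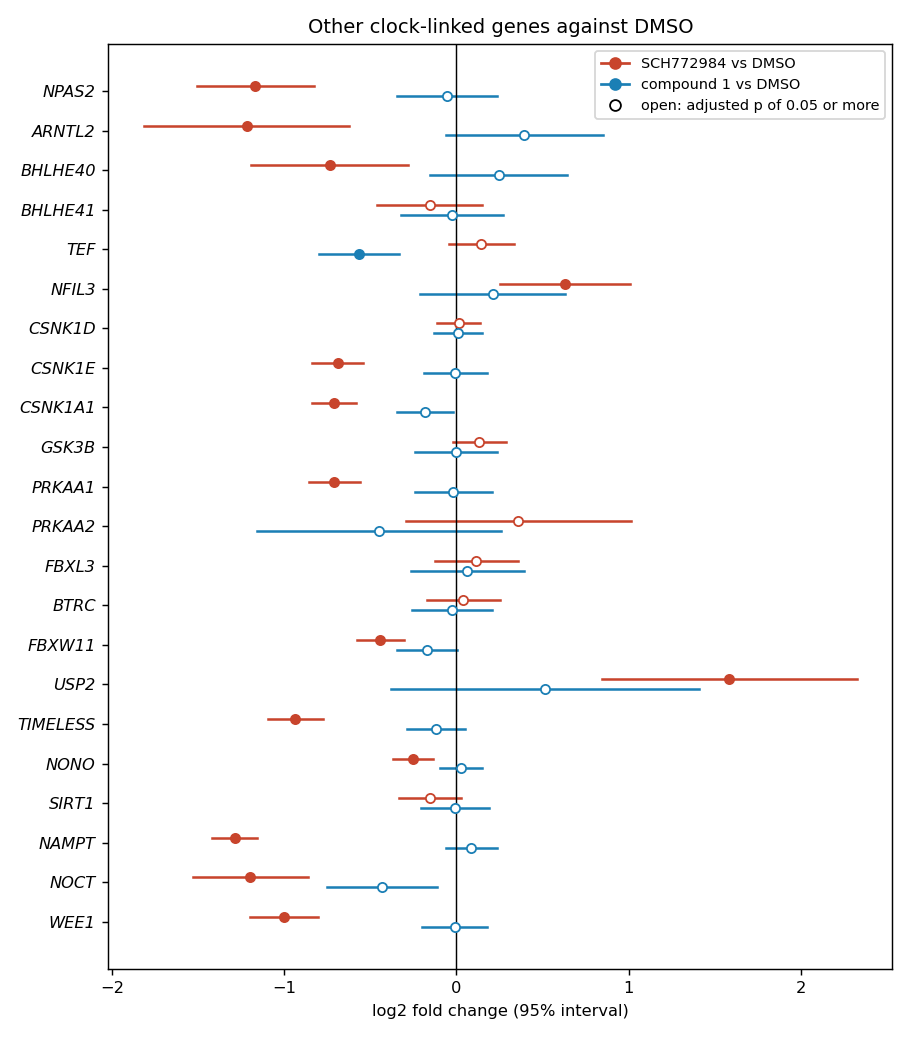
Log2 fold changes against DMSO of the 22 clock-linked genes outside the 10 core members that were tested with both inhibitors, with 95% intervals from edgeR (n = 3 per condition); filled points have an adjusted p under 0.05 and open points do not. With SCH772984, NPAS2 lies at -1.17, ARNTL2 at -1.22, NAMPT at -1.29 and USP2 at 1.58, and TEF at -0.57 is the only filled point with compound 1.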

How the data were processed

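Libraries of MIA PaCa-2 cells were grouped by their deposited labels, 3 per condition. The authors deposited raw read counts per gene for 58735 genes, without normalization, with gene length as another column. The submitters' processing notes name HISAT2 2.0.5, featureCounts 1.5.0-p3 and hg38. The strand setting is not given in the sources used here, and genes that overlap another on either strand are uncertain. All identifiers, coordinates and lengths matched GENCODE 29. No spike-in was used for scaling, so a change is measured against the average gene.

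Each pair of conditions was fitted over all genes with edgeR 4.0.16 in R 4.3.3 (limma 3.58.1; TMM factors, filterByExpr with a minimum count of 10 and a minimum total of 15, robust quasi-likelihood test, Benjamini-Hochberg over all tested genes, threshold 0.05) and was tested on simulated data. The median SE of a log2 fold change was 0.115 to 0.131. CPM values use TMM factors of all 9 libraries, so fold changes differ slightly from ratios of CPM. The alternatives were DESeq2 1.42.0, other scalings and filters, all libraries together, a replicate block and leaving out each library.

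The members and lists were chosen with earlier results of these data known. Named were all members, the clock-linked genes NPAS2, ARNTL2, BHLHE40, BHLHE41, RORA, NFIL3, TEF and HLF, and others with an adjusted p under 0.05 and an absolute log2 fold change of at least 1 against DMSO. Same-numbered replicates deviated together with correlations of -0.08 to 0.11 over genes, so the numbers were not taken as pairs. Promoters came from RefSeq. Of the genes the rule names, 1 is not reported here.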

Additional observations from a re-analysis of the deposited data

How the results depend on the processing

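The 7 clock genes called with SCH772984 against DMSO, and the 8 called between the inhibitors, were called with the same sign in each of 13 alternatives. Scaling by library size alone shifted all tested genes upwards with SCH772984 (by 0.17 in median log2 fold change), gave 6242 higher and 3911 lower genes in place of 5150 and 4916, 7 higher clock-linked genes in place of 3, and turned ARNTL to 0.16 and NR1D2 to 0.093. ARNTL was also 0.066 with 10 counts required in every library and -0.066 to 0.058 with 1 library left out. With compound 1 against DMSO, the members called, all lower, numbered 3 at an unadjusted p and 1 without the filter, with all 9 libraries in one fit, with DESeq2 and with the replicate block, and 0 to 2 with 1 library left out. The clock-linked genes called, all lower, numbered 3 at an unadjusted p and 0 to 1 with 1 library left out. With 1 library left out, the compound 1 log2 fold changes ranged from -0.27 to 0.12 for CLOCK and from -0.063 to 0.071 for CRY1, and the ratio differences from -0.14 to 0.27 for NR1D1 to NR1D2 and from -0.23 to 0.084 for PER1 to PER2. Between the inhibitors, 3 clock-linked genes were higher, in place of 5, without the filter, with DESeq2 and with the replicate block, and 3 to 6 with 1 library left out. The paired fit with the replicate block called 193 genes higher and 219 lower with compound 1, DESeq2 117 and 122, and the fit without the filter 189 and 228, in place of 63 and 48; the fits with 1 library left out called 5 to 453 higher and 3 to 798 lower. The cause of these shifts was not tested. Among the 10 clock genes with SCH772984, PER2 had the fewest counts, 46 in its lowest library, and several clock-linked genes had fewer.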
